A study of Mus musculus with 30 samples.

Results

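The nuclear genes of the mitochondrial respiratory chain and ATP synthase were followed across mouse livers lacking PPARα, CREB3L3 or both. Members were taken by gene symbol alone, as every gene whose symbol starts with *Nduf*, *Uqcr*, *Cox4* to *Cox8* or *Atp5*, or is *Sdha*, *Sdhb*, *Sdhc* or *Sdhd*. This gave 88 of the 18820 genes that had a probe set carrying exactly 1 symbol. Of them, 34 encode complex I subunits, 4 complex II, 7 complex III, 19 complex IV and 17 complex V (ATP synthase), and 7 are the complex I assembly factors *Ndufaf1* to *Ndufaf7*. The complex IV genes include *Ndufa4*, a cytochrome c oxidase subunit despite its name, and 8 isoforms known mainly from heart, skeletal muscle, lung, testis or brain (*Cox4i2*, *Cox6a2*, *Cox6b2*, *Cox7a1*, *Cox7b2*, *Cox8b*, *Cox8c* and *Ndufa4l2*). The subunits encoded by mitochondrial DNA carry other symbols and were not analysed here. The rule also leaves out *Cyc1*, a complex III subunit with another symbol, which is counted in a list of electron carriers below. *Cox7a2l*, a factor that helps complexes III and IV join, is counted among the complex IV subunits.

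Complexes I and II pass electrons from NADH and succinate to ubiquinone, complex III passes them on to cytochrome c, and complex IV hands them to oxygen. Complexes I, III and IV pump protons across the inner mitochondrial membrane, and ATP synthase uses that gradient to make ATP. In the liver of a fasted or fat-fed mouse this chain takes up the electrons released by fatty acid oxidation. PPARα is the fatty acid receptor that switches on fatty acid oxidation and ketogenesis in hepatocytes, and CREB3L3 is a liver-enriched transcription factor made as a precursor in the endoplasmic reticulum membrane and set free by cleavage.

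The 30 livers came from male mice of about 8 weeks, of 4 genotypes: WT (C57BL/6), PPARα−/− (a C57BL/6J backcross carrying the Pparatm1Gonz allele), CREB3L3−/− (backcrossed onto C57BL/6) and combined PPARα/CREB3L3−/− mice bred from both knockout lines. Mice were either fasted for 16 h or given a ketogenic diet for 4 days and killed without a fast, so the regimens differ in feeding state and length as well as in diet. Each of the 8 groups had 4 arrays, except both PPARα−/− groups, which had 3. The deletions were present in the whole body, and the RNA was from whole liver, in which fewer cells of a type and less RNA per cell cannot be told apart. The values are RMA signals on the log2 scale, where a difference of 1 is a 2-fold change. *Creb3l3* averaged 4.37 in CREB3L3−/− livers on the ketogenic diet against 10.45 in WT livers, and 4.90 against 11.10 in the fasted state. The *Ppara* signal was less clear: it was 7.62 in PPARα−/− livers against 10.49 in WT livers on the diet, but 9.19 against 10.24 in the fasted state, where the groups did not overlap and the change missed the threshold used here. *Ppara* was also lower in CREB3L3−/− livers on the diet, at 8.64.

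Promoter sequence is shown first for 6 members, because the behaviour of these genes is described below and their starts hold letters known as binding motifs of nuclear respiratory factor 1 (NRF1) or GA-binding protein (GABP, also called NRF2), textbook regulators of respiratory chain genes. RefSeq promoters of build GRCm38.p6 were available for 73 of the 88 members, and the 250 bases before each start were searched on both strands. The NRF1 letters GCATGCGC were present for 9 of these 73 genes (12.3%), against 3.32% of 17491 protein-coding genes. The GABP letters CCGGAAG were present for 13 (17.8%), against 10.2%. The oestrogen-related receptor letters TCAAGGTCA were found for 1 member (1.37%), *Atp5g3*, against 0.36%, and a repeat of AGGTCA after 1 base of any kind, the form bound by PPARα, for 0 members against 0.0515%. At a share of 0.0515% a count of 0 among 73 genes was all but fixed in advance, so it does not show that PPARα sites are absent. Each line below gives the last 100 bases before the start, 5′ to 3′ on the gene's strand, with the matched letters in capitals. NRF1 letters lie upstream of *Atp5k* (chr5:108434400-108434499, minus strand), *Atp5g2* (chr15:102671048-102671147, minus strand) and *Sdhb* (chr4:140961171-140961270, plus strand), and where 10 capitals stand together, 2 overlapping matches on opposite strands share them. GABP letters lie upstream of *Sdhd* (chr9:50603850-50603949, minus strand), *Ndufs3* (chr2:90904722-90904821, minus strand) and *Uqcr11* (chr10:80406822-80406921, minus strand).
Atp5k: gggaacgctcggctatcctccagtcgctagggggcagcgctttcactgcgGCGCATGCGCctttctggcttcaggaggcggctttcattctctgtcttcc
Atp5g2: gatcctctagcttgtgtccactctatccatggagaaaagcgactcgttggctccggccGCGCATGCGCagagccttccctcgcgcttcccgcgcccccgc
Sdhb: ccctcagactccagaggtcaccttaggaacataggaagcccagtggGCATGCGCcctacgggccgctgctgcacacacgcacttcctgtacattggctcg
Sdhd: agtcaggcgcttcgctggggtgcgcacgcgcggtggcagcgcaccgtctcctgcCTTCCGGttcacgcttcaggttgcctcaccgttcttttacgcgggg
Ndufs3: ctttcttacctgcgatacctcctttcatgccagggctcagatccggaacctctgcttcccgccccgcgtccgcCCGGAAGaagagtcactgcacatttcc
Uqcr11: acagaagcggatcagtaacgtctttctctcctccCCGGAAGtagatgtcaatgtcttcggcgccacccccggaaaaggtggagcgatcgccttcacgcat
A match describes letters in this window and is not evidence of binding.

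On the ketogenic diet, subunits of every complex were lower in CREB3L3−/− livers than in WT livers, while in livers lacking both factors they stood at the WT level on average. The mean signal of the 73 subunits of complexes I to V, leaving out the tissue-restricted isoforms and the assembly factors, was 9.76 ± 0.09 (SD, n = 4) in WT livers and 9.27 ± 0.05 (SD, n = 4) in CREB3L3−/− livers, with ranges of 9.64 to 9.84 and 9.21 to 9.34. In livers lacking both factors it was 9.76 ± 0.06 (SD, n = 4), and in PPARα−/− livers 9.70 ± 0.01 (SD, n = 3). The CREB3L3−/− livers therefore lay below all other livers on the diet. In the fasted state the order was different. There the mean was 9.76 ± 0.02 (SD, n = 4) in WT livers and 9.71 ± 0.03 (SD, n = 4) in CREB3L3−/− livers, against 9.55 ± 0.01 (SD, n = 3) in PPARα−/− livers. Livers lacking both factors gave 9.51 ± 0.09 (SD, n = 4). Both fasted groups without PPARα lay below every fasted liver with it. These means describe chosen genes and carry no test of their own.

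**Figure D1:**
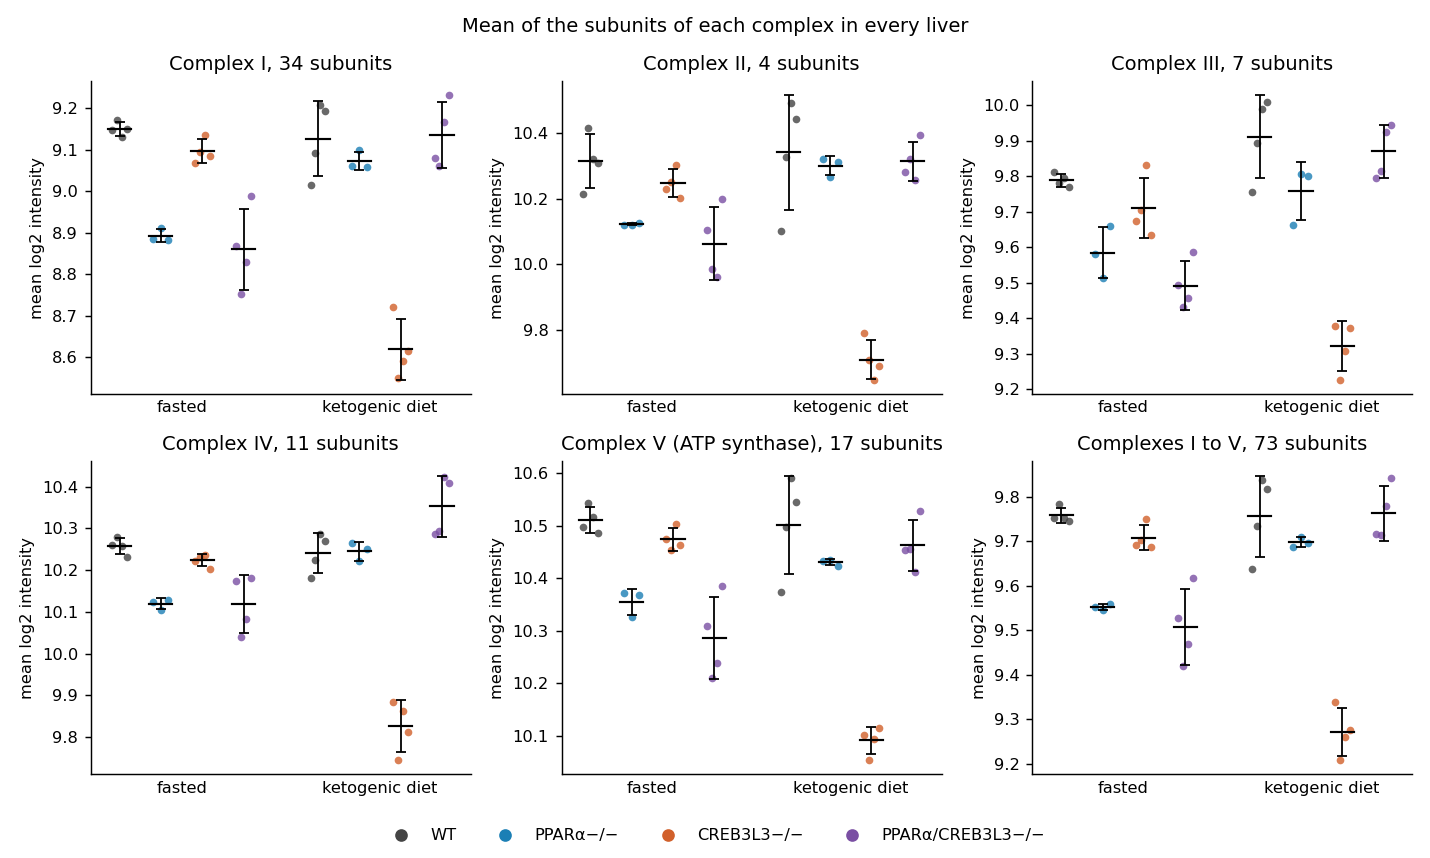
Mean log2 intensity (y axis) over the subunits of complexes I to V, and over all 73, in each liver, by genotype (colour) and regimen (x axis). Points are livers, and bars show the group mean and SD. CREB3L3−/− livers on the ketogenic diet are lowest in all 6 panels, and their mean over the 73 subunits, 9.27, lies below that of fasted PPARα/CREB3L3−/− livers, 9.51.

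A gene was counted as lower or higher where the limma P value was under 0.001 and the fold change beyond 1.2, the thresholds of the original analysis, in a fit to all 35556 probe sets. In CREB3L3−/− livers on the ketogenic diet, 64 of the 88 members were lower and 0 were higher than in WT livers. Over all probe sets 8.56% were lower and 12.8% higher. The median log2 fold change of the members was −0.48, against −0.06 over all probe sets, and 81 of 88 values were negative. Over the 18820 genes with 1 symbol the shares were 11.9% and 16.7%. All 4 genes of complex II and all 7 of complex III were lower, as were 27 of 34 in complex I, 13 of 17 in complex V and 10 of 19 in complex IV. Without its 8 tissue-restricted isoforms, complex IV had 9 of 11 lower. The medians were −0.51 for complex I, −0.61 for complex II, −0.61 for complex III, −0.31 for complex IV (−0.48 without the isoforms) and −0.44 for complex V.

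In complex I, all 6 of the core subunits measured, which carry the flavin and the iron-sulphur clusters or build the quinone site, were lower, with a median of −0.59, and so were 21 of the 28 accessory subunits. *Ndufa9*, an accessory subunit near the quinone site, read 9.31, 9.50, 9.64 and 9.47 in the WT livers on the diet and 8.64, 8.46, 8.67 and 8.63 in the CREB3L3−/− livers. The groups did not overlap, and the log2 fold change of −0.88 ± 0.06 (SE) corresponds to 1.85-fold lower signal (adjusted p = 3.4e-11, limma). *Ndufs1*, the largest subunit of the electron input module, read 9.48, 9.46, 9.60 and 9.50 in WT livers and 8.76, 8.60, 8.49 and 8.68 in CREB3L3−/− livers, a change of −0.88 ± 0.08. *Ndufv1*, which binds NADH and the flavin, read 9.34, 9.43, 9.58 and 9.70 against 8.72, 8.59, 8.71 and 8.68, a change of −0.84 ± 0.07. *Ndufs3*, a core subunit of the arm that carries electrons to the quinone, read 10.05, 10.09, 10.27 and 10.20 against 9.61, 9.47, 9.54 and 9.57, a change of −0.61 ± 0.06. For all 3 genes every CREB3L3−/− liver was below every WT liver. They were picked by low P in comparisons that use these livers, so the separation is no further evidence.

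Complex II, succinate dehydrogenase, also belongs to the citric acid cycle. *Sdhc*, 1 of its membrane anchors, read 9.92, 10.24, 10.31 and 10.27 in WT livers and 9.58, 9.37, 9.22 and 9.44 in CREB3L3−/− livers on the diet, and fell by 0.78 ± 0.08 (SE) on the log2 scale (adjusted p = 9.5e-09, limma). *Sdhd*, the other anchor, read 9.94, 10.30, 10.33 and 10.40 against 9.48, 9.71, 9.79 and 9.65, a change of −0.59 ± 0.09, and the flavoprotein *Sdha* changed by −0.64 ± 0.10. These groups did not overlap for either anchor. In complex III the Rieske iron-sulphur protein *Uqcrfs1* read 9.37, 9.54, 9.64 and 9.71 in WT livers and 8.63, 8.46, 8.84 and 8.81 in CREB3L3−/− livers, a change of −0.88 ± 0.08 (adjusted p = 1.2e-09). The core protein *Uqcrc1* read 10.21, 10.31, 10.51 and 10.47 against 9.62, 9.74, 9.54 and 9.67, a change of −0.74 ± 0.08, and *Uqcrq* changed by −0.82 ± 0.09. For all 3 complex III genes every CREB3L3−/− liver was below every WT liver. They were picked by lowest P in this comparison, so the separation is no further evidence.

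Among the complex IV subunits, *Cox7b* read 10.80, 10.77, 10.93 and 10.88 in WT livers and 10.13, 10.23, 10.43 and 10.33 in CREB3L3−/− livers on the diet, a change of −0.57 ± 0.06 (SE; adjusted p = 1.2e-08, limma). *Cox6c* changed by −0.65 ± 0.07 and *Ndufa4*, the brightest probe set of the complex, by −0.55 ± 0.06. In ATP synthase, the 5 genes of the catalytic F1 head were all lower, with a median of −0.54. *Atp5b*, the catalytic β subunit and the brightest of all members, read 12.25, 12.29, 12.35 and 12.33 in WT livers and 11.92, 11.84, 11.75 and 11.89 in CREB3L3−/− livers. Its change of −0.45 ± 0.04 (adjusted p = 2.5e-10) is 1.37-fold and separated the groups. *Atp5a1*, the α subunit, changed by −0.58 ± 0.05. The 3 genes for subunit c, whose ring turns as protons pass, changed less: only *Atp5g3* was lower, and *Atp5g2* read 10.63, 10.52, 10.53 and 10.64 in WT livers and 10.63, 10.73, 10.56 and 10.64 in CREB3L3−/− livers (0.06 ± 0.06, adjusted p = 0.46). The stalk and membrane part had 7 of 9 genes lower, at a median of −0.44; *Atp5h*, in the peripheral stalk, changed by −0.50 ± 0.05. Of the complex I assembly factors *Ndufaf6* (−0.55 ± 0.11) and *Ndufaf3* (−0.55 ± 0.12) were lower along with *Ndufaf1*, described below.

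**Figure D2:**
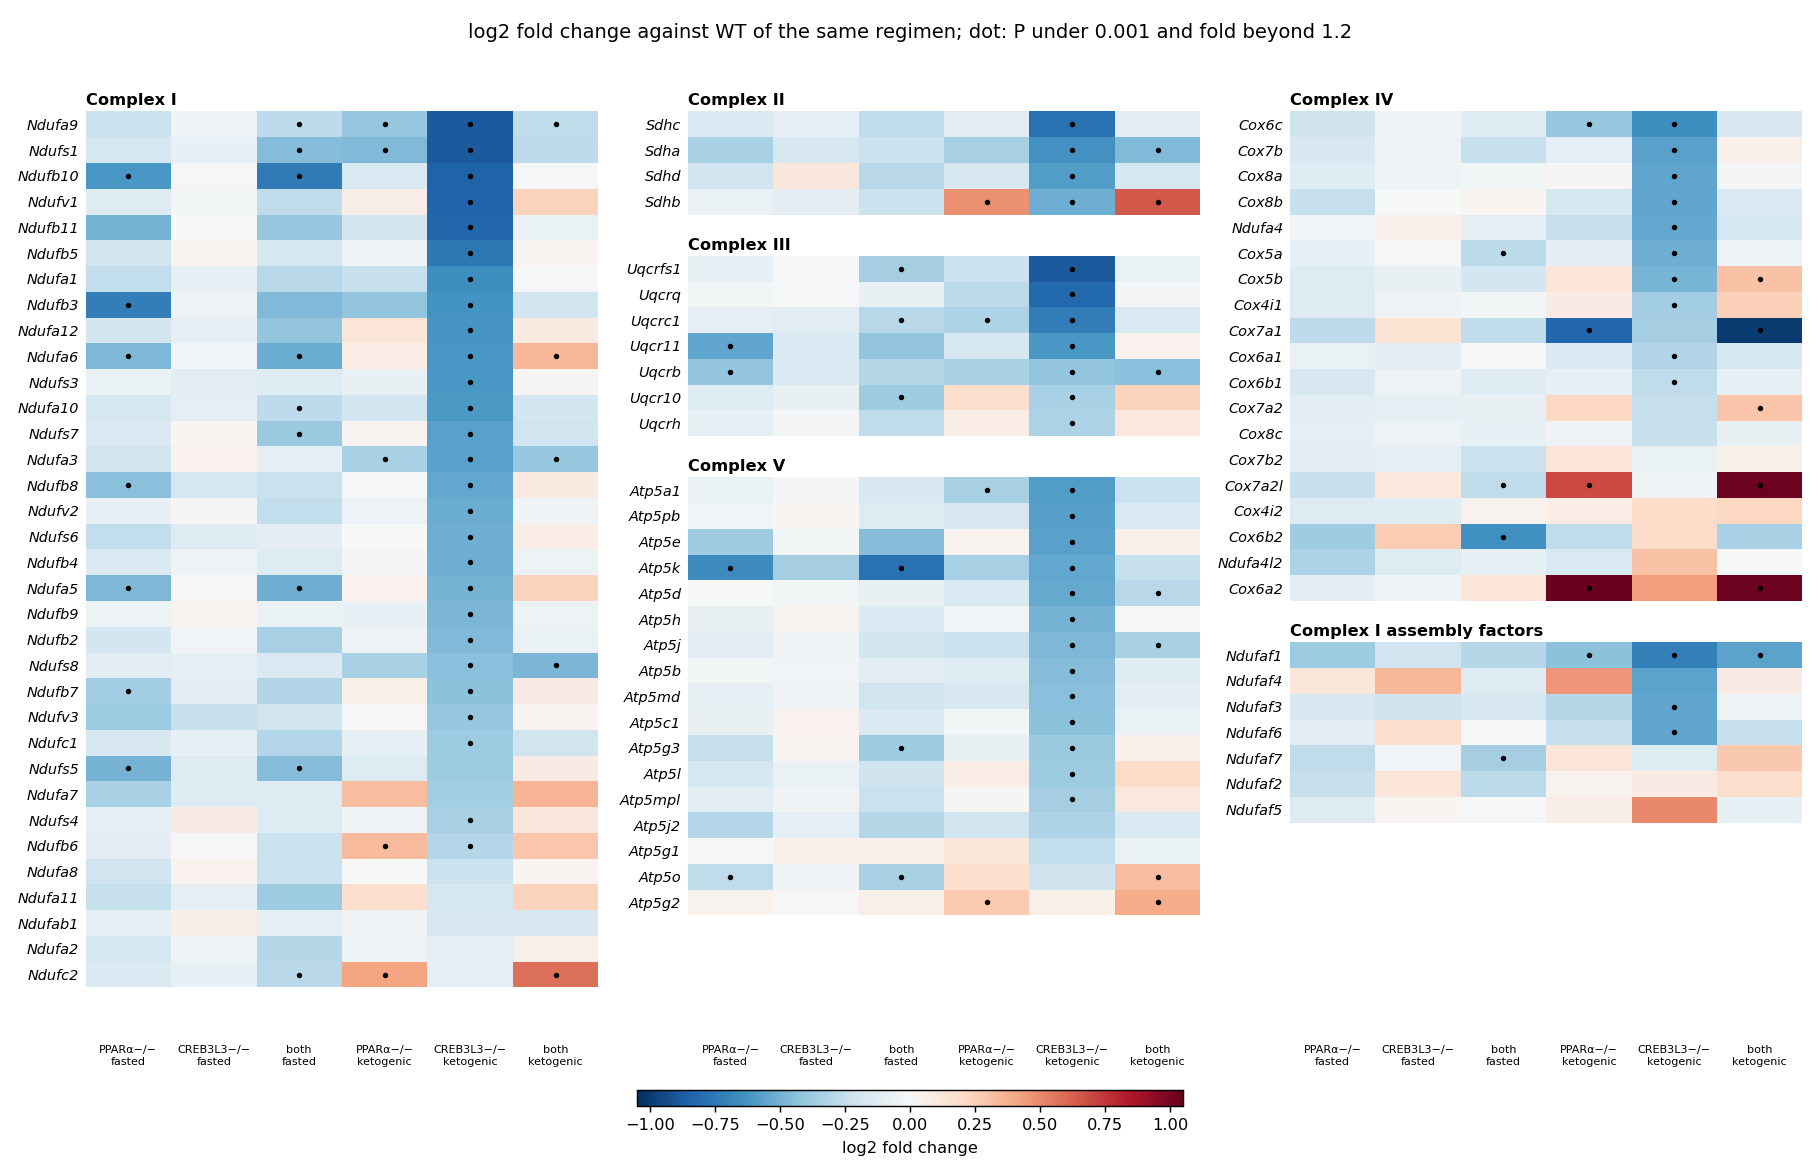
Log2 fold change (colour) of the 88 members in each knockout group against WT livers of the same regimen, by complex, with members ordered by their change in CREB3L3−/− livers on the ketogenic diet. Dots mark P under 0.001 and a fold change beyond 1.2; "both" is PPARα/CREB3L3−/−. The CREB3L3−/− ketogenic column carries 64 dots, all on negative values, and the fasted CREB3L3−/− column none.

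The 24 members that did not pass in CREB3L3−/− livers on the diet were not alike. Several were negative but small or variable, such as *Ndufa8*, which changed by −0.23 ± 0.05 (adjusted p = 0.00067, limma), below the fold threshold. *Cox7a2l*, a factor that helps complexes III and IV join into supercomplexes, changed by −0.06 ± 0.07 and *Ndufc2* by −0.09 ± 0.06. The largest positive value belonged to the assembly factor *Ndufaf5*, at 0.51 ± 0.15 (adjusted p = 0.0096), with overlapping groups. Of the 7 tissue-restricted isoforms among the 24, *Cox6a2* had the highest value, 0.44 ± 0.17 (adjusted p = 0.045). The isoform *Cox8b* was lower, at 3.38, 3.31, 3.57 and 3.29 in WT livers and 3.02, 2.68, 2.74 and 2.89 in CREB3L3−/− livers, but both groups were below the median signal of their arrays, so these values lie in the range of faint probe sets, and the call was lost with quantile or loess scaling. GABP letters stood before 13 of the 54 lower members with a RefSeq promoter (24.1%) and 0 of the 19 others, and NRF1 letters before 5 (9.26%) and 4 (21.1%). Over protein-coding genes the shares were 10.2% for GABP and 3.32% for NRF1. The 19 are few and come from the 24 members that hold 7 of the tissue-restricted isoforms. Whether the letters go with the response was not tested.

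A further 32 probe sets with the symbol of a member had been passed over for a brighter probe set of the same gene. All 32 had the same sign as their gene's chosen probe set in CREB3L3−/− livers on the diet, and 21 were lower by the same thresholds. For *Ndufb5*, *Ndufc1*, *Uqcr10* and *Uqcrh* the chosen probe set was called lower and the other was not. These probe sets were measured in the same livers, so they are no separate evidence.

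Bright probe sets were more often lower in these livers, whatever the gene, so members were also counted within bands of mean log2 signal, chosen after the data were seen. Among probe sets between 8 and 10, 28 of 36 members were lower (77.8%), against 29.2% of other genes. Above 10 the shares were 24 of 28 members (85.7%) and 48.4% of others, with medians of −0.46 and −0.38. Between 6 and 8 they were 10 of 14 members (71.4%) and 17.4%, and at or below 6 they were 2 of 10 members (20%) and 2.84%. In PPARα/CREB3L3−/− livers on the diet the share of members that were lower was under that of other genes above 6 and over it at or below 6 (10% against 3.61%), with 3 of 36 lower between 8 and 10 (8.33%) against 22%, and 4 of 28 above 10 (14.3%) against 34.1%. PPARα−/− livers on the diet gave 11.1% and 7.14% of members lower in these bands, against 16.5% and 29.3% of other genes.

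**Figure D3:**
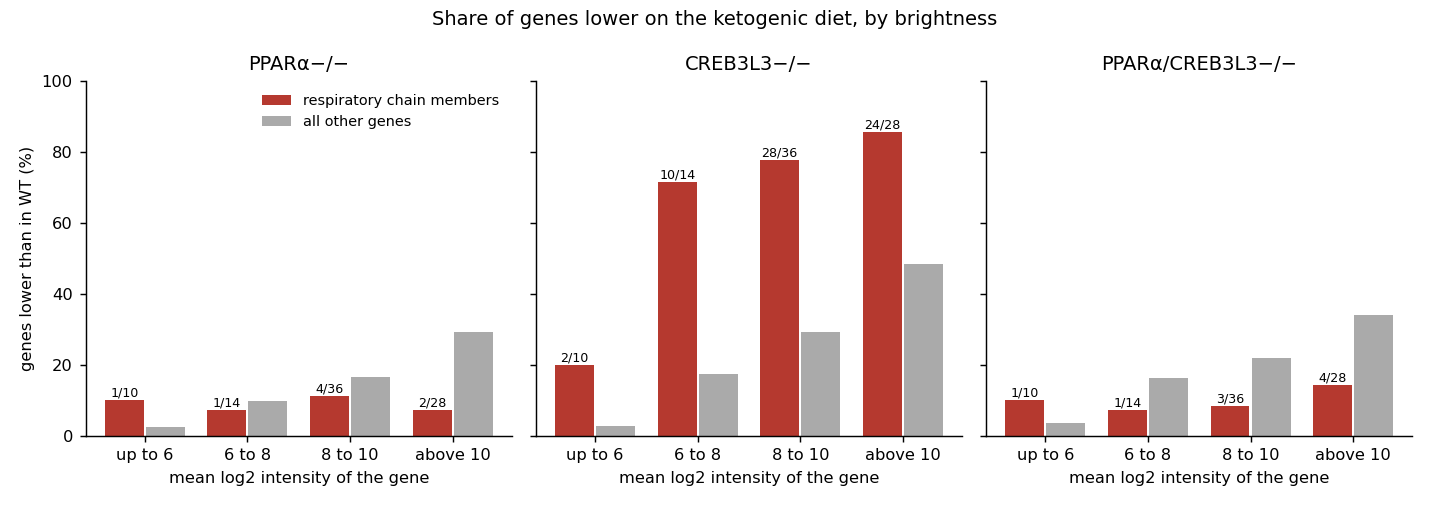
Percent of genes lower than in WT livers on the ketogenic diet (y axis) in 4 bands of mean log2 intensity (x axis), for the members and for all other genes, by genotype. In CREB3L3−/− livers the members exceed the other genes in each band, by 77.8% to 29.2% between 8 and 10, and in PPARα/CREB3L3−/− livers they are below them in every band above 6.

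CREB3L3−/− livers on the diet differed from the rest in other genes too, and these values are given beside the result because their part in it was not tested. All 4 cycling-cell markers were higher, with a median log2 fold change of 4.05, and their mean level was 7.41 to 8.48 in CREB3L3−/− livers against 3.45 to 4.89 in WT livers and 3.31 to 3.44 in PPARα/CREB3L3−/− livers. Of 5 hepatocyte markers 4 were lower, with a median of −0.64, and their level was 11.9 to 12.3 against 12.7 to 12.9. In PPARα/CREB3L3−/− livers 3 were lower, with a median of −0.29 and a level of 12.3 to 12.5. Of 8 macrophage markers 3 were higher, with a level of 8.92 to 9.02 against 7.87 to 8.59, and of 5 neutrophil markers 2 were higher, with a level of 4.18 to 7.40 against 3.32 to 4.43. Of 6 T and NK cell markers 0 passed in either direction, of 6 stellate cell markers 1 was lower and 2 higher, of 6 endothelial markers 1 was lower and 1 higher, and of 4 cholangiocyte markers 2 were higher. Of 3 B cell markers and of 2 erythroid markers 1 each was lower, of 4 brown fat markers 1 was lower and 1 higher, and of 6 skeletal muscle markers 0 passed. All 10 fatty acid oxidation genes were lower in these livers, with a median of −1.06. The shares to set beside all these list counts are 11.9% lower and 16.7% higher over the 18820 genes.

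In livers lacking PPARα on the ketogenic diet, members were called in both directions, at shares near those over the 18820 genes. In PPARα−/− livers 8 members were lower and 6 higher than in WT livers, against 4.81% lower and 6.11% higher over all probe sets, and the median was −0.06 against 0.01. Over the 18820 genes 7.15% were lower and 6.45% higher, against 9.09% and 6.82% of the members. Complex I had 3 lower and 2 higher, complex II 0 and 1, complex III 1 and 0, complex IV 2 and 2 and complex V 1 and 1. In PPARα/CREB3L3−/− livers 9 were lower and 9 higher, against 6.87% and 7.11%, with a median of −0.02. Over the 18820 genes 10.3% were lower and 7.44% higher, against 10.2% of the members in each direction. The fatty acid oxidation list was lower in full in both, 10 of 10 genes, with medians of −1.33 and −1.23.

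*Cox7a2l* had the lowest P among the members in the double knockout. It read 9.35, 9.21, 9.29 and 9.30 in WT livers, 10.00, 9.93 and 10.01 in PPARα−/− livers, and 10.21, 10.16, 10.56 and 10.32 in PPARα/CREB3L3−/− livers on the diet. Its CREB3L3−/− values of 9.30, 9.12, 9.22 and 9.29 lay among the WT values, so the livers split by *Ppara* genotype with no overlap. On the log2 scale the difference from WT was 0.69 ± 0.07 (SE; adjusted p = 6.6e-08, limma) without PPARα and 1.03 ± 0.07 (adjusted p = 9.1e-12; 2.04-fold) without both factors. In the fasted state *Cox7a2l* went the other way, at 9.44, 9.51, 9.43 and 9.48 in WT livers against 9.19, 9.13, 9.18 and 9.31 in PPARα/CREB3L3−/− livers (−0.27 ± 0.07, adjusted p = 0.0098), a call that was lost when all probe sets of the gene were averaged.

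The iron-sulphur subunit *Sdhb*, which links the flavoprotein of complex II to its anchors, took opposite directions in the knockouts. On the diet it read 10.00, 9.98, 10.25 and 10.07 in WT livers, 10.54, 10.54 and 10.58 in PPARα−/− livers, 9.82, 9.52, 9.45 and 9.43 in CREB3L3−/− livers and 10.65, 10.66, 10.89 and 10.69 in PPARα/CREB3L3−/− livers. The changes from WT were 0.48 ± 0.09 (SE; adjusted p = 0.00029, limma), −0.52 ± 0.08 (adjusted p = 1.6e-05) and 0.65 ± 0.08 (adjusted p = 1.1e-06), and none of the 4 groups overlapped with another. *Sdha*, the flavoprotein, changed by −0.46 ± 0.10 in PPARα/CREB3L3−/− livers (adjusted p = 0.00068), so subunits of 1 complex were called in both directions in the same livers.

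*Ndufc2*, an accessory subunit of the membrane arm of complex I, read 9.62, 9.52, 9.77 and 9.54 in WT livers, 9.96, 10.02 and 10.13 in PPARα−/− livers and 10.14, 10.16, 10.25 and 10.22 in PPARα/CREB3L3−/− livers on the diet, with changes of 0.42 ± 0.07 (SE) and 0.58 ± 0.06. *Atp5g2* read 10.86, 10.80 and 10.90 in PPARα−/− livers and 10.99, 10.94, 11.03 and 10.91 in PPARα/CREB3L3−/− livers, 0.27 ± 0.06 and 0.39 ± 0.06 above WT, and the first of these calls was lost with median centring, quantile or loess scaling. Neither gene overlapped with WT in these groups. Members lower in PPARα−/− livers were led by *Atp5a1* (−0.35 ± 0.06), *Ndufa9* (−0.41 ± 0.07), *Ndufa3* (−0.34 ± 0.06), *Cox6c* (−0.40 ± 0.07) and *Ndufs1* (−0.46 ± 0.09). In PPARα/CREB3L3−/− livers they included *Ndufa3* (−0.41 ± 0.06), *Ndufs8* (−0.48 ± 0.09), *Uqcrb* (−0.44 ± 0.09) and *Atp5d* (−0.29 ± 0.06).

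The muscle isoforms *Cox6a2* and *Cox7a1* moved in opposite directions in both groups without PPARα. *Cox6a2* read 4.54, 4.41, 4.79 and 4.86 in WT livers, 5.49, 5.45 and 6.13 in PPARα−/− livers and 5.75, 5.69, 5.42 and 5.86 in PPARα/CREB3L3−/− livers on the diet, with changes of 1.04 ± 0.18 (SE; adjusted p = 0.00011, limma) and 1.03 ± 0.17 (adjusted p = 3.2e-05). *Cox7a1* read 4.99, 4.60, 4.53 and 5.30 in WT livers, 4.06, 4.05 and 3.95 in PPARα−/− livers and 3.69, 4.11, 3.93 and 3.68 in PPARα/CREB3L3−/− livers, with changes of −0.83 ± 0.18 and −1.003 ± 0.16. The groups did not overlap with WT for either gene, but the *Cox7a1* values of the knockouts lay below the median signal of their arrays, in the range of faint probe sets. Of 6 skeletal muscle markers 0 passed in either group, all 6 were below the median signal of the arrays, and their mean level was 3.24 to 3.32 in PPARα−/− livers, 3.03 to 3.41 in PPARα/CREB3L3−/− livers and 3.07 to 3.25 in WT livers. Markers of other cells were lower than in WT livers in the PPARα−/− and PPARα/CREB3L3−/− groups: 5 and 5 of 8 for macrophages, 4 and 3 of 6 for stellate cells, 1 and 4 of 6 for endothelium, 3 and 1 of 3 for B cells, 2 and 1 of 6 for T and NK cells, and 3 and 3 of 5 for hepatocytes. The mean level of 2 erythroid markers was 4.52 to 4.82 in PPARα−/− and 4.60 to 5.12 in PPARα/CREB3L3−/− livers, against 6.03 to 6.99 in WT livers. For 4 brown fat markers, 3 of them below the median signal of the arrays, it was 3.40 to 3.60 and 3.19 to 3.37, against 4.42 to 4.51. The part of these cells in the isoform changes was not tested. Over the 18820 genes 7.15% were lower in PPARα−/− livers and 10.3% in PPARα/CREB3L3−/− livers.

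The combined knockout was set directly against each single knockout. On the ketogenic diet 58 members were higher and 2 lower in PPARα/CREB3L3−/− than in CREB3L3−/− livers, with a median of 0.45, against 8.72% higher and 11.7% lower over all probe sets. Over the 18820 genes 10.6% were higher and 17.2% lower. Between mean log2 signals of 8 and 10, 31 of 36 members were higher, against 24.2% of other genes. Above 10 it was 19 of 28 members against 34.6%. The 2 lower genes were *Cox7a1* (−0.65 ± 0.16) and *Ndufaf5* (−0.59 ± 0.15). Against PPARα−/− livers on the diet 1 member was higher, *Cox7a2l* (0.33 ± 0.07), and 0 were lower, where 2.42% of probe sets passed in either direction. At unadjusted p under 0.05, 10 were higher and 2 lower, and no share over all probe sets was taken at that limit.

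The interaction term asked whether the double knockout differed from the sum of both single-knockout effects on the log2 scale. On the diet it was above 0 for 49 members and below 0 for none at the thresholds used, with a median of 0.51. Over all probe sets 5.94% passed with a positive term, and over the 18820 genes 8.20%. Bright genes passed more often. Between mean log2 signals of 8 and 10, 23 of 36 members had a positive term, against 20.9% of other genes. Above 10 it was 19 of 28 members against 42.5%, with medians of 0.49 and 0.28. *Ndufa9* gave 1.03 ± 0.10 (SE; adjusted p = 1e-08, limma), with 9.10, 8.97 and 9.15 in PPARα−/− livers and 9.25, 9.14, 9.11 and 9.36 in PPARα/CREB3L3−/− livers, against the 8.46 to 8.67 of CREB3L3−/− livers given above. *Uqcrfs1* gave 1.04 ± 0.12 and *Atp5b* 0.47 ± 0.05. The 49 were 19 members of complex I, 3 of complex II, 5 of complex III, 8 of complex IV, 12 of complex V and 2 assembly factors. Other lists had positive interaction terms too. They passed for 4 of 5 hepatocyte markers (median 0.68) and all 10 fatty acid oxidation genes (median 0.97). Of 20 genes in a list of electron carriers, entry points and ubiquinone synthesis genes 10 passed, and of 37 further assembly factors 5 were above 0 and 2 below. This term and the comparison with CREB3L3−/− livers share the CREB3L3−/− and PPARα/CREB3L3−/− livers, so the 2 counts are not separate evidence.

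**Figure D4:**
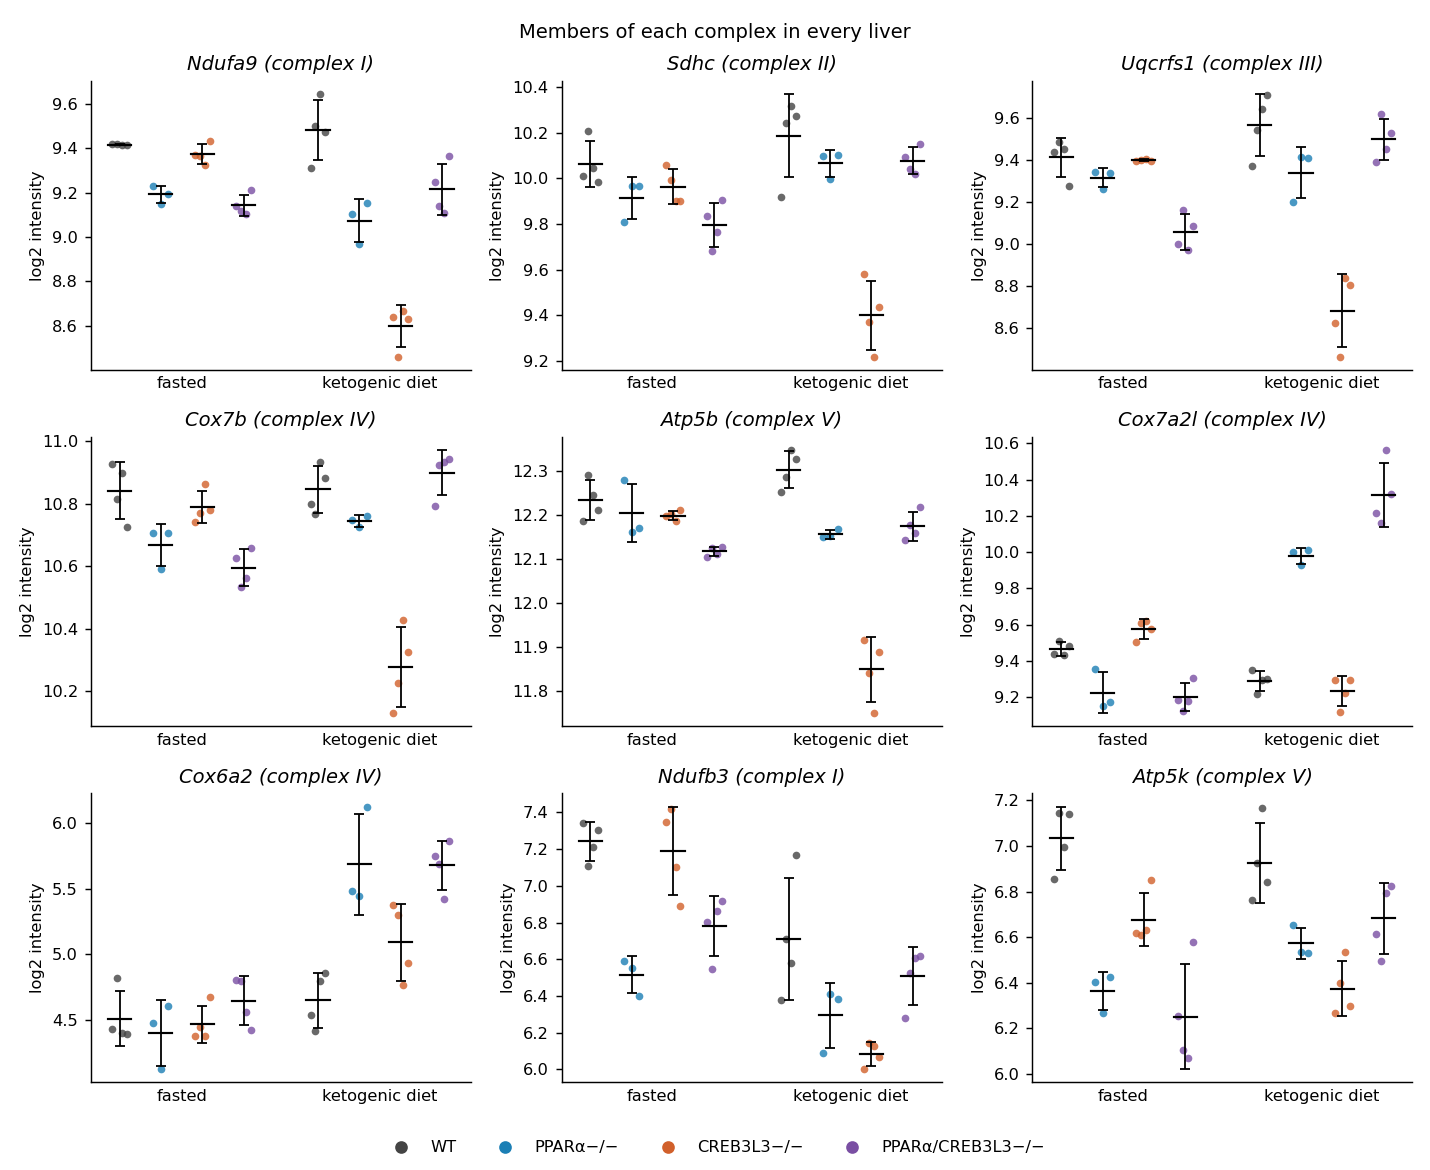
Log2 intensity (y axis) of 9 members in every liver, by genotype (colour) and regimen (x axis), with group mean and SD as bars. *Ndufa9*, *Sdhc*, *Uqcrfs1*, *Cox7b* and *Atp5b* are lowest in CREB3L3−/− livers on the ketogenic diet, *Cox7a2l* and *Cox6a2* are highest in livers without PPARα on the diet, and *Ndufb3* and *Atp5k* are low in fasted PPARα−/− livers.

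In the fasted state members were lower in both groups without PPARα. PPARα−/− livers had 11 members lower and 0 higher than WT livers, against 1.77% lower and 2.23% higher over all probe sets, with a median of −0.17 and 85 of 88 values negative. Complex I held 7 of the 11, complexes III and V 2 each, and complexes II and IV none. In PPARα/CREB3L3−/− livers 19 were lower and 0 higher, against 2.79% and 4.19%, with a median of −0.23. They were 9 members of complex I, 3 of complex III, 3 of complex IV, 3 of complex V and 1 assembly factor. The median of all probe sets was 0.00 and −0.02 in the 2 comparisons. Over the 18820 genes 2.58% and 3.95% were lower. The first count fell to 4 without PPARα−/− replicate 3 and to 6 without PPARα−/− replicate 2 or WT replicate 2, and the second rose to 35 when arrays were centred on their medians.

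The largest falls in fasted PPARα−/− livers were in accessory subunits. *Ndufb3*, the complex I subunit with the faintest probe set, read 7.34, 7.11, 7.21 and 7.31 in WT livers and 6.59, 6.55 and 6.40 in PPARα−/− livers (−0.73 ± 0.14, adjusted p = 0.0022, limma). *Atp5k*, subunit e of ATP synthase, read 6.85, 7.15, 6.99 and 7.14 in WT livers, 6.40, 6.27 and 6.42 in PPARα−/− livers and 6.25, 6.11, 6.07 and 6.58 in PPARα/CREB3L3−/− livers, with changes of −0.67 ± 0.12 (adjusted p = 0.00068) and −0.78 ± 0.11 (adjusted p = 1.5e-05). Neither gene overlapped with WT. *Ndufa6* read 9.67, 9.68, 9.73 and 9.88 in WT livers, 9.25, 9.29 and 9.28 in PPARα−/− livers and 9.14, 9.23, 9.17 and 9.35 in PPARα/CREB3L3−/− livers, with changes of −0.47 ± 0.08 and −0.52 ± 0.08, again without overlap. On the diet the same gene was 0.35 ± 0.08 above WT in PPARα/CREB3L3−/− livers (adjusted p = 0.001), a call lost with median centring.

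In complex I, *Ndufb10* read 7.78, 7.74, 7.60 and 7.63 in fasted WT livers, 7.08, 7.17 and 6.98 in PPARα−/− livers and 7.15, 6.63, 6.76 and 7.25 in PPARα/CREB3L3−/− livers, changes of −0.61 ± 0.14 and −0.74 ± 0.13. In complex III, *Uqcr11*, its smallest subunit, read 8.61, 8.54, 8.39 and 8.53 in WT livers and 7.89, 7.97 and 8.03 in PPARα−/− livers (−0.56 ± 0.14, adjusted p = 0.015, limma), a call lost when all probe sets of the gene were averaged. Both were separated from WT. The iron-sulphur subunit *Ndufs7* read 10.05, 10.08, 10.07 and 10.17 in WT livers and 9.71, 9.69, 9.79 and 9.63 in PPARα/CREB3L3−/− livers, a change of −0.39 ± 0.06 (adjusted p = 0.00014). *Cox6b2* was the 1 tissue-restricted isoform that passed in the fasted double knockout, at −0.65 ± 0.17, with a mean of 4.01 over all arrays that lies in the range of faint probe sets.

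By signal band, 6 of the 14 members between 6 and 8 were lower in fasted PPARα−/− livers (42.9%), against 3.64% of other genes, whereas above 10 it was 1 of 28 (3.57%) against 9.3%. In fasted PPARα/CREB3L3−/− livers 12 of 36 members between 8 and 10 were lower (33.3%), against 10.3%, and above 10 it was 2 of 28 (7.14%) against 12.6%. Of all cell-type markers measured, 1 passed in these fasted comparisons: *Cd4*, a T cell marker, was lower in PPARα/CREB3L3−/− livers (−0.98 ± 0.17).

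Loss of CREB3L3 alone gave no called member in the fasted state, where 1.39% of all probe sets passed in either direction. The median was −0.04, and 5 members were lower and 0 higher at unadjusted p under 0.05 in the limma fit. Against fasted PPARα−/− livers, fasted PPARα/CREB3L3−/− livers likewise gave 0 called members, with a background of 1.67% in either direction and 9 lower and 1 higher at unadjusted p under 0.05. Against fasted CREB3L3−/− livers they gave 16 lower and 0 higher, with 2.37% of probe sets lower, led by *Ndufa6* (−0.48 ± 0.08), *Ndufs7* (−0.41 ± 0.06) and *Ndufb10* (−0.75 ± 0.13). The fasted interaction term passed for 0 members, with a background of 0.762% in either direction and 4 members below and 3 above 0 at unadjusted p under 0.05.

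Within genotypes the ketogenic diet was compared with the fast. In WT livers 1 member was lower and 1 higher on the diet, where 4.25% of probe sets passed in either direction. *Uqcrc1* rose from 9.95, 9.97, 10.07 and 10.13 to 10.21, 10.31, 10.51 and 10.47 (0.34 ± 0.08, adjusted p = 0.0051, limma), and *Ndufb3* fell to 6.38, 6.71, 6.58 and 7.17 (−0.53 ± 0.13, adjusted p = 0.015), with 1 diet liver inside the fasted range and the call lost with median centring. In PPARα−/− livers 13 members were higher on the diet and 0 lower, with a background of 5.74% higher, and 8 were called without diet replicate 2. In PPARα/CREB3L3−/− livers 34 were higher and 0 lower, with 7.42% higher over all probe sets and a median of 0.25. CREB3L3−/− livers went the other way, with 53 lower and 2 higher (*Ndufaf5* and *Cox6a2*) and a median of −0.37, against 11.1% and 14.3%.

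The knockout effects themselves were then compared between regimens. The effect of losing CREB3L3 was more negative on the diet than in the fasted state for 38 members and less negative for 0, where 5.78% of probe sets passed in that direction. *Ndufa9* read 9.42, 9.42, 9.41 and 9.42 in fasted WT livers and 9.37, 9.37, 9.33 and 9.43 in fasted CREB3L3−/− livers, and its effects differed by −0.84. The effect of losing PPARα was more positive on the diet for 7 members and for 0 more negative, with a background of 2.83% in the positive direction; *Cox7a2l* differed by 0.93 ± 0.10 (adjusted p = 1.7e-06, limma). For the double knockout 20 members had a more positive effect on the diet and 1, *Ndufa3* (−0.31 ± 0.08), a more negative one, with backgrounds of 3.95% and 4.31%.

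Assembly of the complexes needs further proteins, and *Ndufaf1*, a complex I assembly factor, was lower in all 3 knockouts on the diet. It read 7.26, 7.72, 7.71 and 7.76 in WT livers, 7.11, 7.23 and 7.20 in PPARα−/− livers, 6.92, 6.91, 6.85 and 6.90 in CREB3L3−/− livers and 7.10, 7.08, 6.82 and 7.20 in PPARα/CREB3L3−/− livers. All knockout livers were below the WT livers, though the lowest WT value, 7.26, was next to the highest PPARα−/− value, 7.23. The changes were −0.43, −0.72 ± 0.10 (SE; adjusted p = 1.3e-06, limma) and −0.56 ± 0.10. Of 37 further assembly factors from a list, 15 were lower and 2 higher in CREB3L3−/− livers on the diet, at a median of −0.39, and 15 and 2 in PPARα/CREB3L3−/− livers, at −0.30. Over the 18820 genes 11.9% were lower and 16.7% higher in the first group, and 10.3% and 7.44% in the second. *Surf1*, needed to build complex IV, read 8.38, 8.25, 8.48 and 8.44 in WT livers and 7.74, 7.25, 7.33 and 7.46 in CREB3L3−/− livers (−0.95 ± 0.09, adjusted p = 2e-09). *Uqcc3*, needed for complex III, changed by −0.92 ± 0.10. In fasted PPARα−/− livers 4 of the 37 were lower and 0 higher, against 2.58% and 3.11% of the 18820 genes.

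Electrons also reach ubiquinone from flavoproteins. A list of electron carriers and entry points also held ubiquinone synthesis genes (*Coq2* to *Coq7*, *Coq8a*, *Coq9* and *Pdss2*), the aldehyde oxidase *Aox1* and the complex III subunit *Cyc1*. Of its 20 measured genes, 13 were lower and 0 higher in CREB3L3−/− livers on the diet, at a median of −0.56. These counts are therefore not of carriers and entry points alone. Over the 18820 genes 11.9% were lower and 16.7% higher. In PPARα−/− and PPARα/CREB3L3−/− livers on the diet 8 were lower and 1 higher in each. There 7.15% and 10.3% of the 18820 genes were lower, and 6.45% and 7.44% higher. *Etfdh*, the oxidoreductase that passes electrons from fatty acid oxidation to ubiquinone, changed by −1.27 ± 0.11 (SE) in CREB3L3−/−, −1.75 ± 0.12 in PPARα−/− and −1.75 ± 0.11 in PPARα/CREB3L3−/− livers, and by −1.15 ± 0.12 in fasted PPARα−/− livers. *Coq8a*, required for ubiquinone synthesis, read 8.93, 8.93, 9.27 and 9.02 in WT livers, 6.13, 6.10, 5.77 and 6.37 in CREB3L3−/− livers and 8.59, 8.69, 9.20 and 9.13 in PPARα/CREB3L3−/− livers on the diet. It changed by −2.95 ± 0.17 (adjusted p = 4.3e-13, limma) in CREB3L3−/− and −0.14 ± 0.17 in PPARα/CREB3L3−/− livers, where it overlapped with WT. *Cycs*, cytochrome c, changed by 0.11 ± 0.12 in CREB3L3−/− livers.

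A list of ATP synthase partners also held other mitochondrial carriers. Of its 7 measured genes, 1 was lower and 2 higher in CREB3L3−/− livers on the diet, with a median of −0.04. Over the 18820 genes 11.9% were lower and 16.7% higher. *Ucp1* and *Ucp3* were faint. *Atpif1*, the inhibitor that blocks ATP hydrolysis by ATP synthase, read 9.89, 9.53, 9.52 and 9.48 in WT livers and 10.65, 10.93, 10.91 and 10.96 in CREB3L3−/− livers, a rise of 1.26 ± 0.12 (SE; adjusted p = 4.7e-09, limma), against 9.66, 9.73, 9.72 and 9.82 in PPARα/CREB3L3−/− livers. *Slc25a4*, the heart and muscle form of the ADP/ATP carrier, read 6.50, 6.68, 6.18 and 6.59 in WT livers and 8.46, 9.70, 10.22 and 9.81 in CREB3L3−/− livers, a rise of 3.06 ± 0.23. The gene called lower was *Slc25a13*, an aspartate/glutamate carrier rather than a partner of ATP synthase, at −1.40 ± 0.11. *Atpif1* and *Slc25a4* were outside the WT range in every CREB3L3−/− liver on the diet.

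Of 13 transcriptional regulators of mitochondrial genes, 6 were lower and 1 higher in CREB3L3−/− livers on the diet, at a median of −0.34. Over the 18820 genes 11.9% were lower and 16.7% higher. *Ppargc1b*, a coactivator of such genes, read 6.21, 6.29, 6.77 and 6.15 in WT livers and 5.47, 4.96, 4.53 and 4.82 in CREB3L3−/− livers (−1.41 ± 0.20, adjusted p = 1.7e-06, limma), while in PPARα/CREB3L3−/− livers it read 6.22, 6.09, 5.85 and 5.98 and overlapped with WT. *Tfb2m* and *Tfam*, which transcribe and package mitochondrial DNA, changed by −0.56 ± 0.08 and −0.39 ± 0.08 in CREB3L3−/− livers. *Ppargc1a* overlapped between WT and CREB3L3−/− livers and did not pass (−0.68 ± 0.34). In fasted PPARα−/− livers 1 of the 13, *Esrrg*, was lower (−1.27 ± 0.26), where 2.58% of the 18820 genes were lower.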

How the data were processed

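Liver RNA was hybridised to Affymetrix Mouse Gene 1.1 ST arrays, which the authors processed with robust multi-array averaging (RMA). The deposited table holds log2 intensities of 35556 probe sets on 30 arrays. The deposited identifiers are the manufacturer's transcript clusters, while the methods describe a remapped probe definition, and the identifiers were used as deposited. Probe sets were named from GEO's platform annotation: 21218 had 1 symbol, 1881 several and 12457 none. Another 9 probe sets matched the member rule but carried several symbols and were left out. Of the 88 members, 23 had several probe sets, and the one with the highest mean over all arrays was used. All 88 symbols matched RefSeq. Array medians lay between 4.22 and 4.38, arrays of a group correlated at r = 0.978 to 0.990, no 2 arrays held identical values, and every value column was used. The number of arrays limits the precision.

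Groups and replicate numbers came from the sample titles. The methods call the arrays of a group biological replicates, and p-values measure the spread between these livers. Group means were fitted with limma 3.58.1 in R 4.3.3, with a mean-dependent prior (trend) and Benjamini-Hochberg adjustment over all 35556 probe sets (22 residual degrees of freedom), and the fit was tested on simulated data. Calls needed P under 0.001 and more than a 1.2-fold difference, and for the effect differences and the interaction the same limits applied to the contrast. Figures were drawn with matplotlib 3.10.9 in Python 3.11.15. Named genes were drawn, per comparison, from the 3 called members of each complex with the lowest P, members called against their complex, the tissue-restricted isoforms, the brightest and faintest probe set of each complex, and up to 4 genes of each other list by lowest P, and not all of them are printed; *Ndufa8*, *Cycs*, *Cd4* and members shown to compare groups were chosen after their values were seen. Of 184 genes in 19 such lists, 148 were matched, and the 13 genes of mitochondrial DNA were not among them. Because most named genes were picked by lowest P, groups that did not overlap add no evidence to their calls. The members and lists were chosen with earlier results of these data known. Promoters were RefSeq sequences of build GRCm38.p6. Alternatives covered scaling, the fit, the choice of probe set, the call rule and leaving out each array.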

Additional observations from a re-analysis of the deposited data

Results flagged for a closer look

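In groups of 4 arrays, the highest or lowest value was tested for its distance from the rest (Dixon's test at the 95% level), over 22 genes and the complex means. Of 174 groups tested, 9 held such an array, and chance alone gives about 1 in 20. The mean of the 73 subunits was 9.78 in fasted WT replicate 2, against 9.75 in each of the other 3. *Ndufs1* was 8.95 in fasted PPARα/CREB3L3−/− replicate 2, against 8.77 to 8.79. On the diet, *Sdhb* was 10.89 in PPARα/CREB3L3−/− replicate 3 (others 10.65 to 10.69), *Cox7b* was 10.79 in replicate 1 of that group (others 10.92 to 10.94) and *Atp5a1* was 11.55 in its replicate 4 (others 11.42 to 11.44). *Cox6a2* was 4.82 in fasted WT replicate 2 (others 4.39 to 4.43) and *Atp5k* was 6.85 in fasted CREB3L3−/− replicate 4 (others 6.61 to 6.63). *Ndufaf1* was 7.21 in fasted CREB3L3−/− replicate 1, against 7.26 in the other 3, and 7.26 in WT replicate 1 on the diet, against 7.71 to 7.76.

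Knockout effects that differed between the regimens, by a limma contrast of the effects, were found for 38 members after loss of CREB3L3, for 7 after loss of PPARα and for 21 after loss of both. Taking the ketogenic minus the fasted effect on the log2 scale, the differences with the lowest P were 0.93 for *Cox7a2l*, 0.58 for *Ndufc2* and 0.46 for *Atp5o* in PPARα−/− livers. In CREB3L3−/− livers they were −0.84 for *Ndufa9*, −0.79 for *Ndufb5* and −0.42 for *Atp5b*. In PPARα/CREB3L3−/− livers they were 1.29 for *Cox7a2l*, 0.87 for *Ndufc2* and 0.87 for *Ndufa6*.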

How the results depend on the processing

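No called result and no named gene's change reversed. Of 180 results for named genes, 3 lost their call with the replicate block (*Cox5b* and *Atp5o*), 11 without the intensity trend and 13 when all probe sets of a gene were averaged, 27 of 178 did when each regimen was fitted alone, and 170 of 5400 did when 1 array was left out. Among those printed, fitting each regimen alone ended the calls of *Ndufaf1* in PPARα−/− livers, *Ndufaf3* in CREB3L3−/− livers and *Ndufa6* in PPARα/CREB3L3−/− livers on the diet, and of *Cox7a1* and *Ndufaf5* between PPARα/CREB3L3−/− and CREB3L3−/− livers, and array weights ended those of *Atp5d* on the diet and *Cox6b2* fasted in PPARα/CREB3L3−/− livers. The 64 members lower in CREB3L3−/− livers on the ketogenic diet numbered 57 to 68 when any array was left out, and the positive interaction terms 42 to 52. Cyclic loess, chosen after the data were seen because bright probe sets were lower in those livers, gave 64 lower there (63 of them the same genes, median −0.51) and 57 positive interaction terms. Replicate numbers did not pair the samples: deviations of same-numbered livers correlated at r = 0.01 on average (99 pairs) and of others at 0.00 (294 pairs). With the replicate block 65 members were called in CREB3L3−/− livers on the diet, 9 in fasted PPARα−/− and 21 in fasted PPARα/CREB3L3−/− livers, and no count moved by 1.5 times.

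Smaller counts moved more. For fasted PPARα/CREB3L3−/− livers (19) array weights gave 29, median centring 35 and an adjusted p under 0.05 without a fold limit 45. The adjusted p gave 23 and 31 for PPARα−/− and PPARα/CREB3L3−/− livers on the diet, 25 for fasted PPARα/CREB3L3−/− against CREB3L3−/−, 4 for the diet in WT and 23 for the diet in PPARα−/− livers. No share over all probe sets was taken at the adjusted p, so these counts have no background beside them. Fitting each regimen alone gave 0 for PPARα/CREB3L3−/− against PPARα−/− on the diet. Median centring split the calls on the diet 8 lower to 4 higher in PPARα−/− and 12 to 6 in PPARα/CREB3L3−/− livers, and 0 to 2 for the diet in WT; cyclic loess gave 12 to 4 and 10 to 8. Leaving out 1 array gave 4 to 15 members in fasted PPARα−/− livers (4 without PPARα−/− replicate 3, 6 without PPARα−/− replicate 2 or WT replicate 2), 0 to 3 for PPARα/CREB3L3−/− against PPARα−/− on the diet (0 without PPARα−/− replicate 2 or PPARα/CREB3L3−/− replicate 3, 3 without PPARα/CREB3L3−/− replicate 2), 1 to 3 for the diet in WT (1 without diet replicates 1, 2 or 3 or fasted replicates 1, 3 or 4) and 8 to 15 for the diet in PPARα−/− livers (8 without diet replicate 2).

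Complex medians moved as follows. In fasted PPARα−/− livers complex I was −0.22 with centring, −0.23 with quantile scaling and −0.24 with loess, complex IV −0.16 with centring and −0.17 with loess, and complex V −0.12 with each. In fasted CREB3L3−/− livers complex I was −0.094, −0.077 and −0.075, complex IV −0.095 with centring and −0.070 with loess, and complex V −0.075 with centring. In fasted PPARα/CREB3L3−/− livers centring gave −0.36, −0.16 and −0.26 for complexes III, IV and V. On the diet complex IV was −0.16 with loess in PPARα−/− livers and −0.48 without its isoforms in CREB3L3−/− livers. Leaving out arrays gave −0.22 to −0.19 (I), −0.17 to −0.13 (IV) and −0.12 to −0.068 (V) in fasted PPARα−/−, −0.060 to −0.032 (IV) in fasted CREB3L3−/−, −0.18 to −0.085 (IV) in fasted PPARα/CREB3L3−/−, and −0.71 to −0.55 (III) and −0.34 to −0.24 (IV) in CREB3L3−/− livers on the diet. Medians near 0 changed sign with the array left out in PPARα/CREB3L3−/− livers on the diet, at −0.034 to 0.050 (I), −0.063 to 0.049 (III) and −0.045 to 0.0066 (IV), where centring gave −0.039 (I) and quantile scaling 0.057 (III). Other small medians moved within their sign, at −0.091 to −0.022 (I), −0.24 to −0.11 (II), −0.29 to −0.18 (III) and −0.14 to −0.048 (V) in PPARα−/− livers on the diet, −0.24 to −0.11 (II) and −0.12 to −0.033 (V) in PPARα/CREB3L3−/− livers on the diet, −0.14 to −0.068 (II), −0.13 to −0.040 (III) and −0.045 to −0.0089 (V) in fasted CREB3L3−/− livers and −0.14 to −0.071 (III) in fasted PPARα−/− livers. The cause of these shifts was not tested.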
